A study of Mus musculus with 12 samples.

Results

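The T cell genes followed here are 37 genes that make up the antigen receptor complex of T cells, relay its signal or mark T cells by their surface receptors and transcription factors. They were chosen by gene name, and a gene was read from the transcript cluster of the array whose symbol is exactly that name. On this basis 35 of the 37 genes were measured, each by 1 cluster, among 23410 clusters with a gene symbol. *Lck* and *Tcf7* had no cluster under their symbol and were not analysed here. The measured genes comprised 7 of 7 genes for the receptor complex and its coreceptors, 12 of 13 for signalling proteins, 11 of 11 for other surface receptors and 5 of 6 for transcription factors.

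The study asked which genes depend on Fra-1, a subunit of the transcription factor AP-1, in the injured lung. RNA of the left lung was hybridised to Affymetrix MoGene 1.0ST arrays, 1 array per mouse, from 12 mice on a mixed C57/129S background that were 2 months old per the labels. *Fra-1*+/+ mice received 30 µL of PBS (WTC) or of PBS with 0.075 U bleomycin (WTT) into the trachea, and *Fra-1*Δ/Δ mice received PBS (KOC) or the same dose of bleomycin (KOT), with 3 mice in each of the 4 groups and lungs taken on day 5. Bleomycin, an antitumour drug, injures the lung and is used to induce inflammation and fibrosis in mice. All mice carried floxed alleles of *Fosl1*, the gene of Fra-1. In *Fra-1*Δ/Δ mice these were deleted by Meox2 (Sox2)-Cre, which is active in the embryo and not in extra-embryonic tissue. The deletion is therefore not limited to T cells or to any lung cell type. The *Fra-1*+/+ mice lacked Cre, so effects of the deletion and of Cre cannot be told apart. Mice are called by group and animal number (WTC 76, for example).

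T cells recognise peptides on MHC molecules with a receptor whose antigen-binding chains depend on the CD3 chains and on the zeta chain, encoded by *Cd247*, to reach the cell surface and to signal. The coreceptors CD4 and CD8 mark helper and cytotoxic T cells, and kinases and adaptors such as *Zap70* and *Lat* pass the signal on to factors that include AP-1. In the lung, T cells lie in the tissue, in lymphoid aggregates along the airways and in the blood that stays in the vessels. Whole-lung RNA holds all of these, and fewer T cells and less RNA per T cell cannot be told apart in it.

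All values are log2 intensities, on which a difference of 1 is a 2-fold difference, and values of different genes are not compared because each probe set has its own brightness. Array medians lay between 7.14 and 7.22, and each array's mean correlation with the others of its group was between 0.990 and 0.994. *Fosl1* differed by -0.16 (adjusted p = 0.792 in limma, SE 0.15) between KOC and WTC. Its values were 7.28 to 7.33 in KOT against 7.81 to 8.32 in WTT, with no overlap, a difference of -0.80 (adjusted p = 0.16, SE 0.15). Bleomycin raised it by 1.44 (adjusted p = 0.000233, SE 0.15) in *Fra-1*+/+ mice and still by 0.81 (adjusted p = 0.00544, SE 0.15) in *Fra-1*Δ/Δ mice. It is not known here whether its probes lie in the deleted part. All 12 arrays had *Xist* between 4.47 and 4.94 and the Y-linked *Eif2s3y* between 8.52 and 8.93, which is the pattern of males, although the labels give females. The labelled tissue was borne out by *Sftpc*, the surfactant protein of alveolar type II cells, at 13.64 to 14.07. *Rag1*, which cuts the receptor genes in immature thymocytes, lay at 5.30 to 5.83, *Rag2* at 3.70 to 4.31 and *Dntt* at 4.99 to 5.49. All 6 *Fra-1*Δ/Δ mice and WTC 76 have animal numbers under 100 and the other 5 *Fra-1*+/+ mice have numbers over 100. What the numbers stand for is not given in the sources used here.

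In 3 of the 4 groups 1 mouse stood apart in *Glycam1*, a gene of lymphoid tissue. *Glycam1*, a ligand for L-selectin made by the high endothelial venules of lymph nodes, lay at 10.80 in WTC 76, at 10.29 in KOC 67 and at 9.31 in KOT 72. In the other 9 mice it lay between 5.94 and 7.36. Of the other measured genes of lymphoid tissue, *Ccl19*, *Cxcr5* and *Ltb* were also highest of their groups in these mice. *Madcam1*, in contrast, was lowest of its group in WTC 76, at 6.16. *Cxcl13* was higher in KOT 81, at 13.21, than in KOT 72, at 12.69. The mean of 13 B cell genes was highest in the same mice of these groups, at 9.49 in WTC 76, 9.50 in KOC 67 and 9.01 in KOT 72. It lay between 7.97 and 8.81 in the other PBS-treated mice, at 8.28 in KOT 80, at 8.23 in KOT 81 and at 7.40 to 8.04 in WTT. *Glycam1* was picked out after its values were seen.

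The T cell genes moved with these mice. WTC 76 had the highest value of its group in 33 of the 35 genes and WTC 157 the lowest in 33. Over all clusters these shares were 34.5% and 31.5%. KOC 67 was the highest mouse of its group in 28 genes and KOT 72 in 25, against 33.9% and 24.5% of all clusters. WTT 160 was the highest in 33, against 42.5% of all clusters, although its *Glycam1* was low, at 6.39. The median SD of the 35 genes within WTC was 0.46, against 0.11 over all clusters. It was 0.21 in WTT, 0.21 in KOC and 0.12 in KOT, where all clusters had 0.13, 0.10 and 0.10. Results are therefore also given without WTC 76, KOC 67 and KOT 72, and the part of lymphoid tissue in them was not tested.

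**Figure D1:**
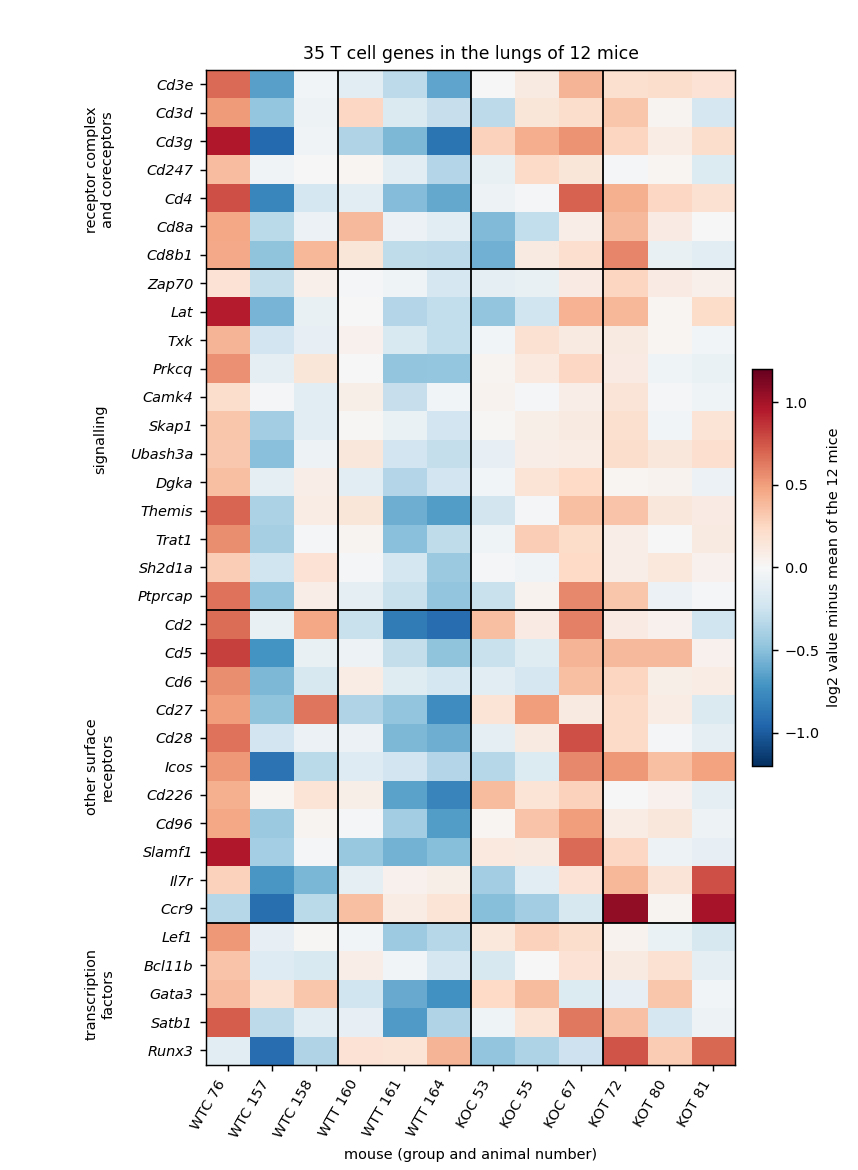
Log2 value of each of the 35 measured T cell genes (rows, by role) in each of the 12 mice (columns, by group), minus the mean of that gene over the 12 mice. Red is above and blue below that mean, and WTC 76 is red in nearly every row while WTC 157 and the WTT mice 161 and 164 are mostly blue.

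**Figure D2:**
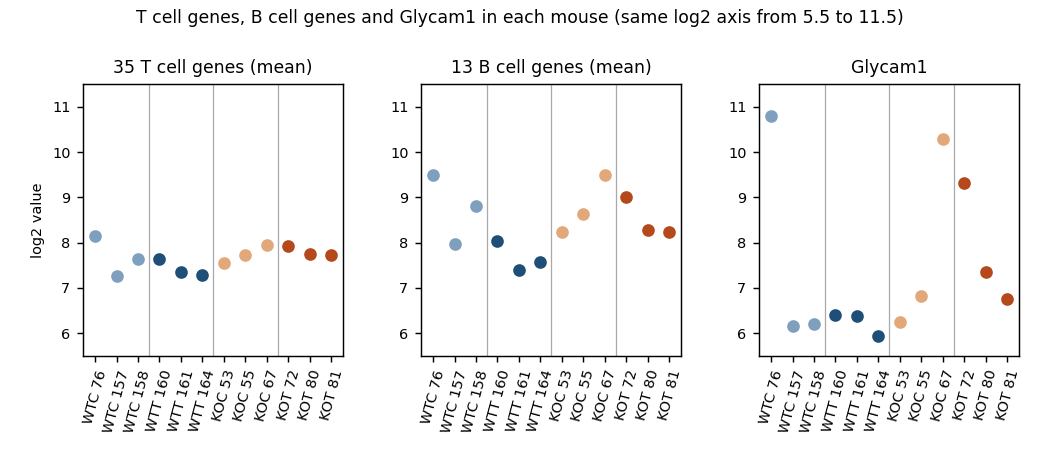
Mean log2 value of the 35 T cell genes, mean log2 value of 13 B cell genes and log2 value of *Glycam1* in each mouse, with 1 point per mouse coloured by group. WTC 76, KOC 67 and KOT 72 are the highest points of their groups in all 3 panels, and *Glycam1* separates them from the other 9 mice.

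With bleomycin in *Fra-1*+/+ mice (WTT against WTC), 4 T cell genes fell and 1 rose. Those that fell were *Cd2*, *Gata3*, *Cd226* and *Prkcq*. *Cd2* is an adhesion receptor of lymphocytes and *Gata3* the factor of type 2 helper T cells. *Cd226* is a receptor that promotes cytotoxicity, and *Prkcq* the kinase that carries the receptor signal to NF-kappa B and AP-1. *Runx3*, a factor of cytotoxic T cells, rose. The threshold was 0.05 for p-values of 1 limma fit to the 12 arrays, adjusted after Benjamini and Hochberg over all 23410 clusters. By this rule 21.5% of all clusters passed, 10.2% higher and 11.3% lower, so that 5 of 35 is no larger a share than that of the array. The median difference of the 35 genes was -0.30, against 0.02 over all clusters, and 11.4% of them were above 0, against 53.9% of all clusters. Values of WTT and WTC mice were fully separate for 2 genes higher and 4 lower, as for 18.3% and 17.4% of all clusters. The study itself used a local-pooled-error test (LPE), which was written anew here. This test, which compares medians and takes its error from clusters of like intensity, called 5 genes lower at an adjusted p under 0.01 (*Cd2*, *Gata3*, *Cd226*, *Cd27* and *Cd8b1*) and 0 higher, when it called 4.47% of all clusters lower and 3.46% higher. *Runx3* was not among its calls. The T cell genes spread more within groups than all clusters, with a median pooled SD of 0.31 against 0.13. LPE does not use the spread of the gene itself, so its p-values can be too small for them. Without WTC 76, KOC 67 and KOT 72 the median was -0.05, with 2 genes past the test in each direction, when 15.8% of all clusters passed. Leaving out 1 array at a time gave 11 genes without WTC 157, 3 without WTC 158 or without WTT 161 and 2 without WTT 164, and without WTC 76 the median was -0.05 and 15 of the 35 differences were above 0. The shares of all clusters that passed without 1 array are not given here, so these counts cannot be set against the array.

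With bleomycin in *Fra-1*Δ/Δ mice (KOT against KOC), *Runx3* and *Ccr9*, a chemokine receptor that directs T cells to the gut, rose and no T cell gene fell. In this comparison 15.4% of all clusters passed, 7.42% higher and 7.98% lower. The 35 genes lay on both sides of 0, with 51.4% above it, against 53.9% of all clusters. Their median was 0.02, as over all clusters. Groups without overlap were found for 3 genes higher and 3 lower, against 18.8% and 16.6% of all clusters. LPE called 3 genes higher (*Ccr9*, *Runx3* and *Icos*) and 0 lower, against 4.45% and 3.63% of all clusters. Without the 3 mice, when 6.8% of all clusters passed, only *Runx3* passed, as it did without KOC 53, without KOT 72 or without KOT 81 alone.

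**Figure D3:**
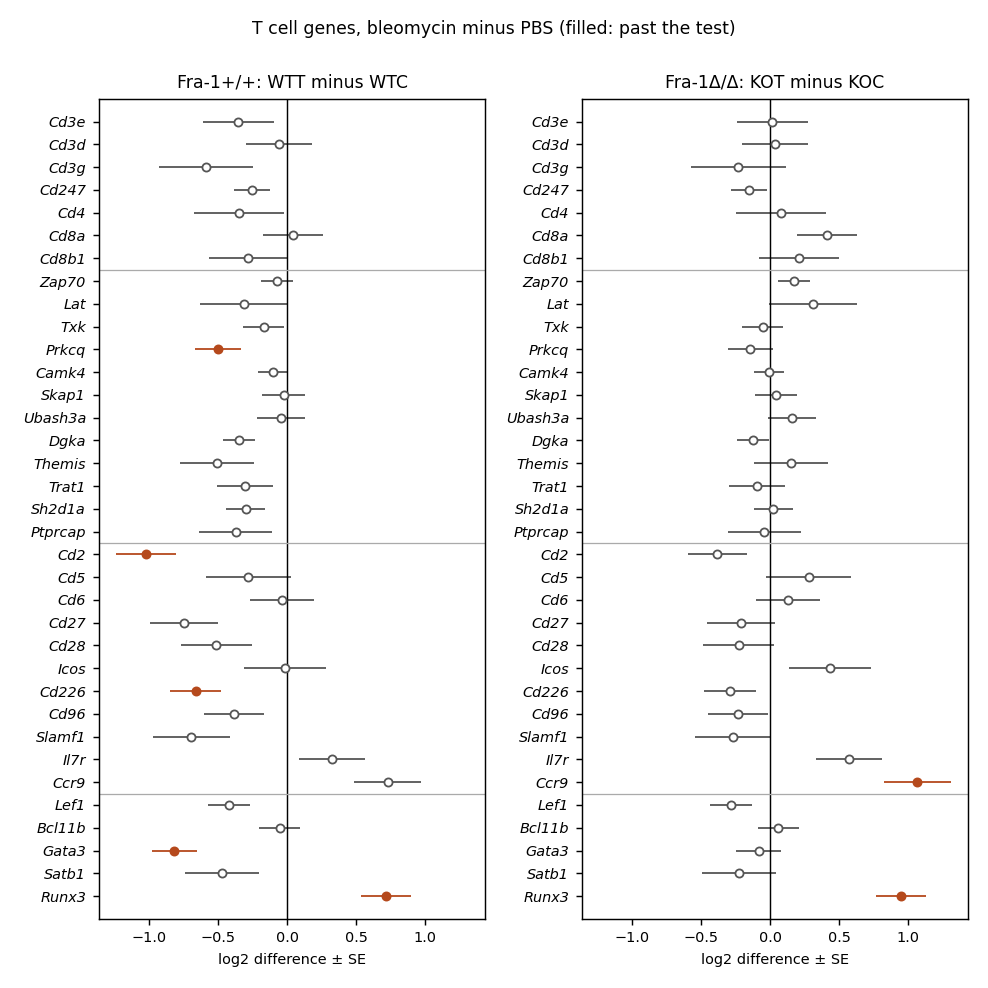
Log2 difference between bleomycin and PBS of each T cell gene, with the SE of the limma fit as a bar, in *Fra-1*+/+ (left) and *Fra-1*Δ/Δ mice (right), 3 mice per group. Filled points passed the test, which 5 did on the left and 2 on the right, and most points on the left lie below 0.

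Between the genotypes after bleomycin (KOT against WTT), all 35 genes were higher in KOT by 0.10 to 0.78, and none passed the test, which 0.0427% of all clusters did. The median difference was 0.36, against -0.01 over all clusters, where 45.8% were above 0. For 16 genes the lowest KOT mouse exceeded the highest WTT mouse and for none the reverse held, where 6.92% of all clusters lay wholly above and 8.8% wholly below. At an unadjusted p under 0.05 in limma there were 6 genes higher, *Cd3g*, *Cd2*, *Cd27*, *Icos*, *Cd226* and *Gata3*, and 0 lower, against 4.27% and 6.32% of all clusters. LPE as written anew called 2, *Cd2* and *Ccr9*, when 0.555% of all clusters were called higher and 0.15% lower. The paper lists *Cd2* and also *Cd4* as higher in this comparison, and *Cd4* had an adjusted p of 0.0135 in LPE here. Without the 3 mice 33 of 35 differences were above 0, with a median of 0.30. With the 2 KOT mice then left, 16 genes lay wholly above WTT, where 10.4% of all clusters lay wholly above and 12.4% wholly below. In the same comparison 13 of 13 B cell genes lay above 0 (median 0.84), and 0 of 8 neutrophil genes (median -0.88), 0 of 9 macrophage genes (median -0.19) and 0 of 5 platelet genes (median -0.37). Above 0 also lay 13 of 15 genes of activated T cells (median 0.34) and 6 of 8 for naive T cells and homing (median 0.38). So did 10 of 13 genes of NK and cytotoxic cells (median 0.24) and 19 of 26 other genes of the receptor pathway (median 0.06). The part of these cells was not tested. Genotype here goes along with the animal numbers, and the part of these was not tested.

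Between the genotypes with PBS (KOC against WTC), no T cell gene passed the test, which 0.0128% of all clusters did, and none had an unadjusted p under 0.05, against 2.94% of all clusters higher and 6.88% lower. None was called by LPE, which called 0.346% of all clusters higher and 1.44% lower. The differences ran from -0.27 for *Cd8a* to 0.42 for *Cd3g*, with a median of 0.06. With a term for animal numbers over 100, which rests on WTC 76 against the other WTC mice, the median was -0.40. No gene had groups that did not overlap, where 6.88% of all clusters lay wholly above and 9.37% wholly below. Without the 3 mice, which leaves 2 mice in each of these groups, 32 of 35 differences were above 0, the median was 0.18 and 10 genes lay wholly above and 0 wholly below, where 21.3% and 22.1% of all clusters did. None passed the test. Whether the responses to bleomycin differed between the genotypes was tested with the difference (KOT minus KOC) minus (WTT minus WTC). It was above 0 for all 35 genes, with a median of 0.32, and none passed, as 0% of all clusters did. *Gata3* alone had an unadjusted p under 0.05, against 2.99% of all clusters higher and 2.1% lower. This difference uses the same 12 mice as the comparisons above, and without WTC 76 its median was 0.03, with 23 of 35 above 0.

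**Figure D4:**
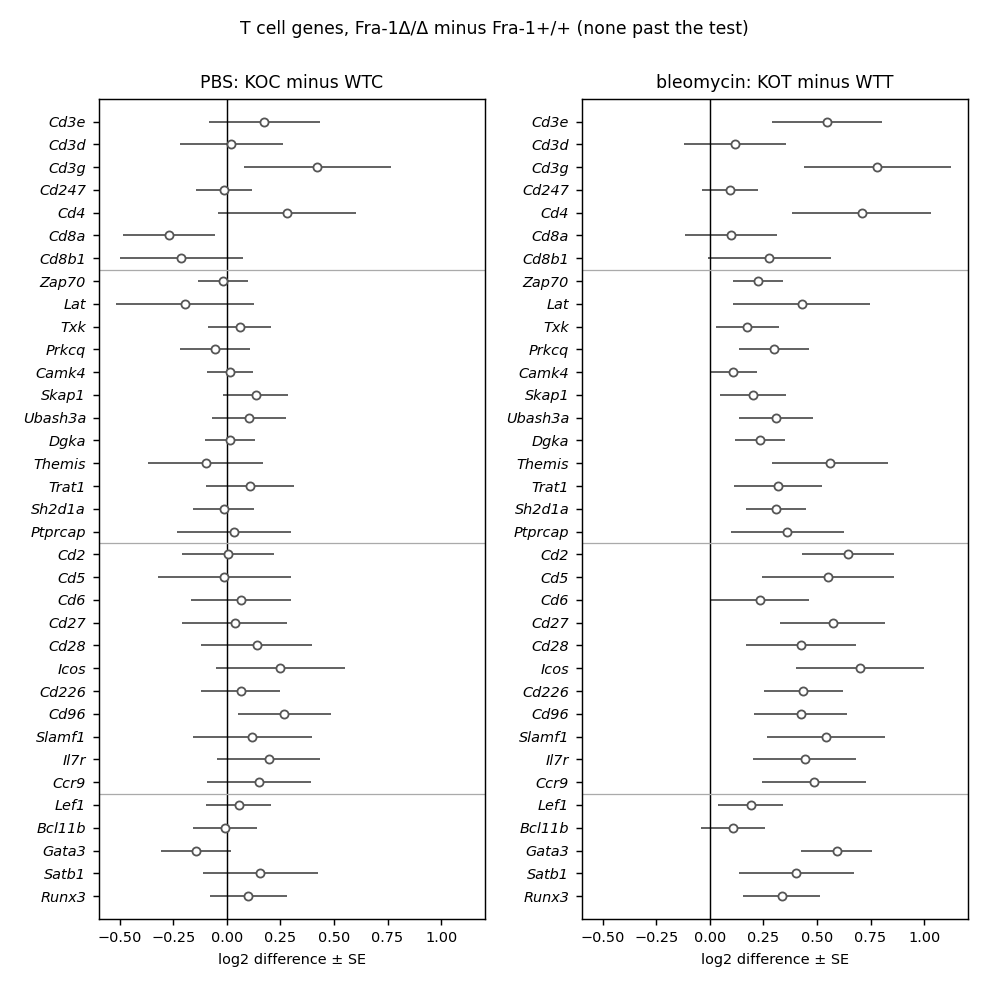
Log2 difference between *Fra-1*Δ/Δ and *Fra-1*+/+ mice of each T cell gene, with the SE of the limma fit as a bar, after PBS (left) and after bleomycin (right), 3 mice per group. No gene passed the test in either panel, and all 35 points on the right lie above 0.

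Among the receptor complex and coreceptors, *Cd3e*, a CD3 chain that every receptor complex holds, lay at 9.41, 8.08 and 8.70 in the 3 WTC mice and at 8.61, 8.41 and 8.10 in WTT. It lay at 8.73, 8.84 and 9.14 in KOC and at 8.92, 8.94 and 8.90 in KOT. The KOT mice lay close together (SD 0.02) and above every WTT mouse, and the WTC mice spanned the values of all other groups. The difference between KOT and WTT was 0.55 (adjusted p = 0.483, SE 0.26), and that between WTT and WTC was -0.35 (adjusted p = 0.381, SE 0.26).

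*Cd3g*, the gamma chain of CD3, lay at 9.30, 7.40 and 8.30 in WTC, at 7.98, 7.80 and 7.46 in WTT, at 8.62, 8.77 and 8.88 in KOC and at 8.60, 8.43 and 8.55 in KOT. All KOT mice were above all WTT mice and below all KOC mice, and WTC 76 and WTC 157 were the highest and the lowest of the 12. Its difference of 0.78 (adjusted p = 0.455, SE 0.34) between KOT and WTT was the largest of the 35 genes, and so was its 0.42 (adjusted p = 0.750, SE 0.34) between KOC and WTC. After bleomycin it differed by -0.59 (adjusted p = 0.261, SE 0.34) in *Fra-1*+/+ and by -0.23 (adjusted p = 0.722, SE 0.34) in *Fra-1*Δ/Δ mice. *Cd3d*, the delta chain, lay at 7.13, 6.16 and 6.57 in WTC, at 6.87, 6.46 and 6.35 in WTT, at 6.32, 6.77 and 6.84 in KOC and at 6.96, 6.66 and 6.42 in KOT, with overlap in every comparison. Its differences were between -0.06 and 0.12, and that between WTT and WTC, -0.06, was 0.20 without WTC 76.

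*Cd247*, the zeta chain, lay at 8.07, 7.66 and 7.69 in WTC, at 7.72, 7.57 and 7.35 in WTT, at 7.61, 7.93 and 7.84 in KOC and at 7.68, 7.72 and 7.54 in KOT. The groups overlapped in every comparison. Its difference between KOT and WTT was the smallest of the 35 genes, at 0.10 (adjusted p = 0.835, SE 0.13), and that between WTT and WTC was -0.26 (adjusted p = 0.196, SE 0.13).

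*Cd4*, the coreceptor of helper T cells, lay at 8.65, 7.10 and 7.67 in WTC, at 7.75, 7.36 and 7.26 in WTT, at 7.82, 7.85 and 8.58 in KOC and at 8.30, 8.13 and 8.07 in KOT. Every KOT mouse was above every WTT mouse, and the other groups overlapped. The difference was 0.71 (adjusted p = 0.472 in limma and 0.0135 in LPE, SE 0.32). *Cd8a*, a chain of the coreceptor of cytotoxic T cells, lay at 8.30, 7.52 and 7.77 in WTC, at 8.24, 7.77 and 7.71 in WTT, at 7.32, 7.55 and 7.92 in KOC and at 8.24, 7.94 and 7.84 in KOT. Its groups overlapped in every comparison. It differed by 0.10 (adjusted p = 0.897, SE 0.22) between KOT and WTT and by 0.41 (adjusted p = 0.236, SE 0.22) between KOT and KOC. *Cd8b1*, the other chain of CD8, lay at 8.46, 7.52 and 8.40 in WTC, at 8.15, 7.70 and 7.68 in WTT, at 7.43, 8.11 and 8.20 in KOC and at 8.59, 7.91 and 7.86 in KOT. Here too the groups overlapped in every comparison, and KOT 72 was the highest mouse of the 12. LPE, though not limma, called *Cd8b1* lower in WTT than in WTC (adjusted p = 0.00635). Whether *Cd4* and the CD8 chains differed in their change was not tested.

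Of the 12 signalling genes only *Prkcq* passed in limma, and none in LPE. It lay at 8.96, 8.29 and 8.55 in WTC, at 8.41, 7.94 and 7.94 in WTT, at 8.44, 8.53 and 8.66 in KOC and at 8.51, 8.36 and 8.33 in KOT. WTT 160 lay above WTC 157, and the other WTT mice were the lowest of the 12. The fall with bleomycin was 0.50 on the log2 scale in *Fra-1*+/+ mice (log2 difference -0.50, adjusted p = 0.0483, SE 0.16). Without WTC 76 it was -0.32 with an adjusted p of 0.161, and over 23 other ways to process or choose the arrays 15 lost the call, with adjusted p between 0.013 and 0.197. In *Fra-1*Δ/Δ mice *Prkcq* differed by -0.14 (adjusted p = 0.623, SE 0.16).

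The other 11 signalling genes gave no call by limma or LPE in any comparison. *Dgka*, a kinase that removes the diacylglycerol which activates *Prkcq*, came close in *Fra-1*+/+ mice, with -0.35 (adjusted p = 0.0540, SE 0.12), and there every WTT mouse lay below every WTC mouse, between 10.38 and 10.60 against 10.62 to 11.09. All 12 signalling genes lay below 0 between WTT and WTC, from -0.51 for *Themis* to -0.03 for *Skap1*, but 5 of them lay above 0 without WTC 76. All 12 lay above 0 between KOT and WTT, from 0.11 for *Camk4* to 0.56 for *Themis*. In 6 of them the KOT mice lay wholly above the WTT mice, where 6.92% of all clusters did. These 6 include *Zap70*, the kinase that binds the phosphorylated zeta chain, and *Lat*, the adaptor it phosphorylates. *Zap70* lay between 7.31 and 7.51 in KOT and between 7.05 and 7.24 in WTT, and *Lat* between 8.67 and 9.04 and between 8.29 and 8.64. Their differences of 0.23 (SE 0.12) and 0.43 (SE 0.32) did not pass the test. *Trat1* and *Sh2d1a* had no group mean of 6 or more.

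*Cd2* gave the largest fall of the surface receptors. It lay at 8.85, 8.10 and 8.64 in WTC, at 7.91, 7.34 and 7.27 in WTT, at 8.55, 8.28 and 8.79 in KOC and at 8.28, 8.23 and 7.95 in KOT. The WTT mice were the 3 lowest of the 12, below every WTC mouse and below every KOT mouse. The difference between WTT and WTC was -1.02 (adjusted p = 0.0064, SE 0.21), and it passed under all 23 other settings, at -1.30 to -0.86. In *Fra-1*Δ/Δ mice it was -0.38 (adjusted p = 0.272, SE 0.21), the lowest of the 35 genes in that comparison. Between KOT and WTT it was 0.65 (adjusted p = 0.344 in limma and 0.00132 in LPE, SE 0.21). The difference between the 2 responses was 0.64 (adjusted p = 0.963, SE 0.30).

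*Cd226* lay at 7.32, 6.92 and 7.06 in WTC, at 6.96, 6.25 and 6.10 in WTT, at 7.27, 7.05 and 7.17 in KOC and at 6.90, 6.94 and 6.78 in KOT. WTT 161 and WTT 164 were the 2 lowest mice, while WTT 160 lay among the WTC mice. It fell in *Fra-1*+/+ mice (difference -0.66, adjusted p = 0.0255, SE 0.19), and 7 of 23 other settings lost the call, among them the fit without WTC 76 at -0.55 and without WTT 164 at -0.49. In *Fra-1*Δ/Δ mice all KOT values were below all KOC values, with a difference of -0.29 (adjusted p = 0.342, SE 0.19). Between KOT and WTT the difference was 0.44 (adjusted p = 0.440, SE 0.19).

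*Ccr9* rose in *Fra-1*Δ/Δ mice. It lay at 6.63, 6.73 and 6.95 in KOC and at 8.21, 7.17 and 8.13 in KOT, and at 6.80, 6.24 and 6.82 in WTC and 7.51, 7.23 and 7.31 in WTT. Bleomycin-treated mice lay above PBS-treated mice in both genotypes, and KOT 80 lay below all WTT mice while KOT 72 and KOT 81 lay above them. The rise was 1.07 (adjusted p = 0.0124, SE 0.24) in *Fra-1*Δ/Δ mice, which 4 of 22 other settings lost, those without KOC 53, without KOT 72 or without KOT 81 and that without the 3 mice high in *Glycam1*. In *Fra-1*+/+ mice the difference of 0.73 (adjusted p = 0.0523, SE 0.24) just missed the threshold. Between KOT and WTT it was 0.49 (adjusted p = 0.502 in limma and 0.00525 in LPE, SE 0.24), where the LPE value rests on medians.

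The other surface receptors gave no call by limma, while LPE called *Cd27* lower in WTT than in WTC (adjusted p = 4.3e-05) and *Icos* higher in KOT than in KOC (adjusted p = 0.00765). *Cd27*, a costimulatory receptor of the TNF receptor family, lay at 7.97, 6.99 and 8.11 in WTC and at 7.11, 6.99 and 6.72 in WTT, a difference of -0.75 (adjusted p = 0.0503, SE 0.25). WTC 157 lay among the WTT mice. *Il7r*, the receptor for the survival factor interleukin 7, was 1 of 2 surface receptors, with *Ccr9*, whose difference between WTT and WTC was above 0 (5 of 11 without WTC 76), at 0.32 (adjusted p = 0.389, SE 0.24), and it had 0.57 (adjusted p = 0.139, SE 0.24) between KOT and KOC. Without WTC 76 the difference in *Fra-1*+/+ mice was 0.62 with an adjusted p of 0.0431. *Icos*, a costimulator of activated T cells, lay at 8.30, 8.15 and 8.28 in KOT and at 7.64, 7.56 and 7.43 in WTT, where the mice did not overlap, with a difference of 0.70 (adjusted p = 0.441, SE 0.30). *Cd27* had 0.57 (adjusted p = 0.444, SE 0.25) in the same comparison. In 6 of the 11 receptors the KOT mice lay wholly above the WTT mice, where 6.92% of all clusters did. The differences of the 11 between KOT and WTT ran from 0.23 to 0.70.

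Of the transcription factors *Gata3* fell in *Fra-1*+/+ mice. It lay at 8.53, 8.34 and 8.50 in WTC, at 7.93, 7.56 and 7.44 in WTT, at 8.40, 8.54 and 8.0 in KOC and at 8.07, 8.50 and 8.13 in KOT. The WTT mice were the 3 lowest of the 12 and did not overlap with WTC or KOT. The WTC mice lay close together (SD 0.10). The difference was -0.82 (adjusted p = 0.00513, SE 0.16) and passed under all 23 other settings, at -0.96 to -0.72. In *Fra-1*Δ/Δ mice it was -0.08 (adjusted p = 0.798, SE 0.16), and between KOT and WTT it was 0.59 (adjusted p = 0.288, SE 0.16, unadjusted p = 0.00387 in limma). The difference between the 2 responses was 0.73 (adjusted p = 0.876, SE 0.23, unadjusted p = 0.00857 in limma), the largest of the 35 genes, so a difference in response did not pass the correction over all clusters. *Gata3* is not limited to T cells, as innate lymphoid cells and some epithelia use it too.

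*Runx3* rose in both genotypes. It lay at 9.03, 8.25 and 8.80 in WTC, at 9.34, 9.33 and 9.58 in WTT, at 8.69, 8.79 and 8.91 in KOC and at 9.92, 9.47 and 9.85 in KOT. Every bleomycin-treated mouse lay above every PBS-treated mouse of both genotypes. The rise was 0.72 (adjusted p = 0.0151, SE 0.18) in *Fra-1*+/+ mice, lost under 2 of 23 other settings, LPE and the fit without WTT 164, and 0.95 (adjusted p = 0.00504, SE 0.18) in *Fra-1*Δ/Δ mice, where it passed under all 22. KOT and WTT differed by 0.34 (adjusted p = 0.537, SE 0.18). NK cells and myeloid cells also use *Runx3*. The remaining factors *Lef1*, *Bcl11b* and *Satb1* gave no call by limma or LPE, with differences of -0.42 to -0.05 between WTT and WTC and of 0.11 to 0.40 between KOT and WTT.

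**Figure D5:**
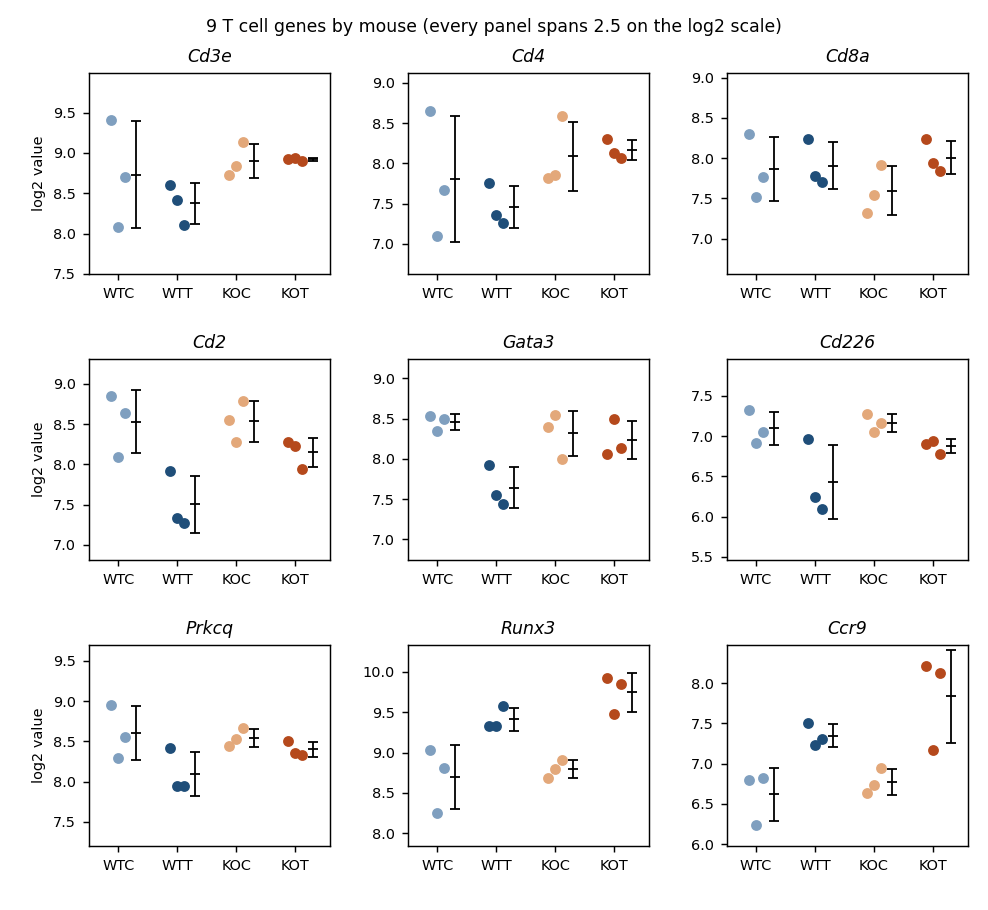
Log2 value of 9 T cell genes in each mouse (points, 3 per group, in order of animal number), with the group mean and SD beside them. *Cd2* and *Gata3* are lowest in the 3 WTT mice, *Runx3* and *Ccr9* are higher in bleomycin-treated mice of both genotypes, and the WTC mice are spread widely in *Cd3e* and *Cd4*.

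The log2 values of the T cell genes did not change by equal amounts. Taken in each mouse relative to the mean of *Cd3e*, *Cd3d* and *Cd3g*, *Ccr9* was higher by 1.06 in WTT than in WTC and by 1.13 in KOT than in KOC, and *Runx3* by 1.05 and 1.01. In both genotypes the groups did not overlap for either gene. In *Fra-1*+/+ mice *Cd6* and *Icos* also lay wholly higher and *Cd2* wholly lower, by 0.69, where 3.98% of all clusters were higher and 0.585% lower on this scale. In *Fra-1*Δ/Δ mice 9 genes lay wholly higher, among them *Icos* by 0.49, *Il7r* by 0.63 and *Cd8a* by 0.47, and 4 wholly lower, where 12.2% of all clusters were higher and 5.1% lower. On the same scale 3 genes, *Cd3g*, *Cd4* and *Icos*, lay wholly higher in KOT than in WTT and 12 wholly lower, where 0.282% of all clusters were higher and 66.7% lower. The counts include *Cd3d* and *Cd3g*, which are part of that mean. These are unequal changes of array values. Each probe set has its own brightness and other cells also use *Runx3*, and the part of these was not tested.

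The bases before the start sites of the members that passed a test are shown because Fra-1 acts as part of AP-1 and because *Runx3* binds DNA itself. RefSeq on GRCm38.p6 gave promoter windows of 300 bases, 250 before and 50 after the start, for 24 of the 35 measured genes, with 39 windows in all. *Cd2* and *Cd226*, which also passed a test, had none. Windows were searched on both strands for the AP-1 site TGANTCA, which reads the same on both, and for the RUNX site TGTGGT, which reads ACCACA on the other strand. The motifs can share at most 1 base at their ends. The AP-1 site was found in 0 of the 39 windows, against 7.81% of 32851 windows of all genes. The RUNX site was found in 7 windows of 7 genes, *Cd96*, *Il7r*, *Lat*, *Runx3*, *Trat1*, *Txk* and *Zap70*, which is 17.9% of the members' windows against 16.8% of all. No match says only that the letters are not in these 300 bases. Given below are the 250 bases before each start, 5′ to 3′ on the strand of the gene in lower case, with RUNX sites in capitals. *Runx3* has 2 starts, of which the upstream one at chr4:135120395-135120644 (plus strand) holds ACCACA at -134 and -126 from the start and 8 CG pairs, and the downstream one at chr4:135152295-135152544 (plus strand) holds no site and 38 CG pairs. Which start the array's probes read is not known here. The others are *Ccr9* at chr9:123766961-123767210 (plus strand), *Gata3* at chr2:9878601-9878850 (minus strand) and *Prkcq* at chr2:11172132-11172381 (plus strand).
*Runx3*, upstream start: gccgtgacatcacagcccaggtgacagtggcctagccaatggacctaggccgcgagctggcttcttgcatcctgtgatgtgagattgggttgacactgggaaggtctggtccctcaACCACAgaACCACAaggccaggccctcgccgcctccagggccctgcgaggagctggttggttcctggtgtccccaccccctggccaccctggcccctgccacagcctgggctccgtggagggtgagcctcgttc
*Runx3*, downstream start: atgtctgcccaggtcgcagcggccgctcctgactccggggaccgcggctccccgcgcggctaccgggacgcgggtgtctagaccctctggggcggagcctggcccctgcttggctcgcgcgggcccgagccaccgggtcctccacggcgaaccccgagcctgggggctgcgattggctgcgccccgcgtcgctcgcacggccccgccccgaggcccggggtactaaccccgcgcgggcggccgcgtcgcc
*Ccr9*: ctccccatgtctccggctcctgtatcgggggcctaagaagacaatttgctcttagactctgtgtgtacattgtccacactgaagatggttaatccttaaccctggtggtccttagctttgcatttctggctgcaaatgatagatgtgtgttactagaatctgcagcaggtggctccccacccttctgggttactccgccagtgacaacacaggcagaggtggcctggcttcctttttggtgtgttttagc
*Gata3*: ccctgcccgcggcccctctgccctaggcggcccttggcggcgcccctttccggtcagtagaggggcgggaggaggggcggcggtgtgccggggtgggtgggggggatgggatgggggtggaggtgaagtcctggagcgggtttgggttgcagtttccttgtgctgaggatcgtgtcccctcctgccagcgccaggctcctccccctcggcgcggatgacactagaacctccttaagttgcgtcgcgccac
*Prkcq*: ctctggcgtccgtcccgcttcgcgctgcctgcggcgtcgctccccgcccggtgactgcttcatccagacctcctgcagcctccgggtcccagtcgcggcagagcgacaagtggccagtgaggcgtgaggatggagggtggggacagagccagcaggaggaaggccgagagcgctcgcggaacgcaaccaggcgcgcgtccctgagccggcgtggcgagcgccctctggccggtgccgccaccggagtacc

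The other genes of the receptor pathway moved in both directions. Of 28 listed genes 26 were measured. After bleomycin 5 were higher and 2 lower in *Fra-1*+/+ mice, against 10.2% and 11.3% of all clusters. In *Fra-1*Δ/Δ mice 5 were higher and 1 lower, against 7.42% and 7.98% of all clusters. The medians of the 26 genes were 0.06 and 0.18. *Bcl10*, which links *Prkcq* to NF-kappa B, rose by 0.44 (adjusted p = 0.00474, SE 0.09) in *Fra-1*+/+ mice, and *Sla*, an adaptor that lowers receptor levels, by 0.80 (adjusted p = 0.00697, SE 0.17). Many genes of this list are used by myeloid cells too. No gene of it passed between the genotypes by limma or LPE, in either treatment.

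Some genes of activated and regulatory T cells were raised by bleomycin. Of 15 listed, 4 passed in *Fra-1*+/+ mice and 8 in *Fra-1*Δ/Δ mice, all of them higher, against 10.2% and 7.42% of all clusters. *Foxp3*, the factor of regulatory T cells, lay at 7.63, 7.40 and 7.43 in WTC, at 7.87, 7.89 and 7.71 in WTT, at 7.52, 7.50 and 7.68 in KOC and at 8.14, 8.24 and 8.22 in KOT. The bleomycin-treated mice lay above the PBS-treated mice of their genotype, and the KOT mice above all others. The rise was 0.34 (adjusted p = 0.0170, SE 0.09) in *Fra-1*+/+ and 0.64 (adjusted p = 0.00124, SE 0.09) in *Fra-1*Δ/Δ mice, and the difference between KOT and WTT was 0.38 (adjusted p = 0.210, SE 0.09). The call in *Fra-1*+/+ mice was lost without WTC 157 (0.29), without WTC 158 (0.31) or without WTT 161 (0.30). *Havcr2*, an inhibitory receptor that macrophages also carry, rose by 1.09 (adjusted p = 0.0038, SE 0.21) and by 0.88 (adjusted p = 0.0149, SE 0.21), the latter lost without KOC 55 (0.76), without KOT 81 (0.77) or without the 3 mice high in *Glycam1* (0.91). None of the 15 passed in limma between the genotypes or for the difference between responses, while LPE called *Il2ra* (adjusted p = 2.73e-05) and *Cd69* (adjusted p = 0.00561) higher in KOT than in WTT. It called 0.555% of all clusters higher there.

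Of 8 measured genes for naive T cells and homing, 1 passed in *Fra-1*+/+ and 2 in *Fra-1*Δ/Δ mice, all higher. Of all clusters 10.2% and 7.42% did. The differences were above 0 for 2 of 8 genes (median -0.18) and for 6 of 8 (median 0.29). *Klf2* and *S1pr1* lay wholly lower in KOT than in KOC and 3 genes wholly higher, against 16.6% and 18.8% of all clusters. *Itgae*, the integrin of T cells and dendritic cells in epithelia, rose by 0.68 (adjusted p = 0.0117, SE 0.16) in *Fra-1*+/+ and by 0.96 (adjusted p = 0.00281, SE 0.16) in *Fra-1*Δ/Δ mice. *Ccr8*, a chemokine receptor of regulatory and type 2 helper T cells, lay at 5.38, 5.35 and 5.71 in KOC and at 6.47, 6.40 and 6.72 in KOT, against 6.04, 5.54 and 5.44 in WTC and 5.95, 5.80 and 5.80 in WTT. The KOT mice were the 3 highest of the 12. It rose by 1.05 (adjusted p = 0.00154, SE 0.15) in *Fra-1*Δ/Δ mice and differed by 0.17 (adjusted p = 0.484, SE 0.15) in *Fra-1*+/+ mice and by 0.69 (adjusted p = 0.210, SE 0.15) between KOT and WTT. The difference between the responses did not pass either.

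Markers of other cells moved beside the T cell genes, and their part in the results above was not tested. Of all clusters 11.3% passed lower in limma in *Fra-1*+/+ mice and 7.98% in *Fra-1*Δ/Δ mice. Of 13 B cell genes 5 fell in *Fra-1*+/+ mice, among them *Cd79b*, a chain of the B cell receptor, (log2 difference -1.56, adjusted p = 0.0074, SE 0.34) and *H2-Ob*, which steers antigen loading in B cells (log2 difference -1.48, adjusted p = 0.0118, SE 0.35). LPE called 12 of the 13 lower in *Fra-1*+/+ mice, against 4.47% of all clusters. None of the 13 passed in limma in *Fra-1*Δ/Δ mice, where 11 of 13 differences were below 0 and LPE called *Fcer2a* lower (adjusted p = 0.000569). There the mean of the list lay at 8.23 to 9.50 in KOC and 8.23 to 9.01 in KOT. All 13 were higher in KOT than in WTT, with no call by limma. Of them 5 had an unadjusted p under 0.05 in limma, against 4.27% of all clusters higher. LPE called 5 (*Cd79a*, *Cd79b*, *Ms4a1*, *Fcer2a* and *Spib*), against 0.555% of all clusters. Of 13 genes of NK and cytotoxic cells 2 fell in *Fra-1*+/+ mice, the NK receptor *Ncr1* and the protease *Gzma* (-0.76, adjusted p = 0.0239, SE 0.21). LPE called 3 of these 13 genes lower in *Fra-1*+/+ mice, against 4.47% of all clusters. None passed in limma in *Fra-1*Δ/Δ mice, and LPE called 1 lower, against 3.63% of all clusters. *Gzma* lost its call without WTC 76 (-0.66), without WTT 161 (-0.62) or without WTT 164 (-0.61). The mean of that list lay at 6.54 to 7.0 in WTC, 6.44 to 6.80 in WTT, 6.87 to 6.91 in KOC and 6.76 to 6.93 in KOT. *Rora*, a factor of innate lymphoid cells and of much else in the lung, fell in both genotypes (-0.35, adjusted p = 0.0149 and -0.33, SE 0.09, adjusted p = 0.0241, SE 0.09), the only one of 5 genes in its list to pass in limma. It lost the call in *Fra-1*+/+ mice without WTC 157 (-0.29) or without WTT 164 (-0.32), and in *Fra-1*Δ/Δ mice without KOC 53, KOC 55, KOT 72 or KOT 81, at -0.33 to -0.28.

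By limma, 10.2% of all clusters rose in *Fra-1*+/+ mice and 7.42% in *Fra-1*Δ/Δ mice. Of 9 macrophage genes 9 rose in *Fra-1*+/+ and 8 in *Fra-1*Δ/Δ mice. Their mean lay at 8.43 to 8.66 in WTC, 9.49 to 10.09 in WTT, 8.47 to 8.62 in KOC and 9.33 to 9.94 in KOT. Of 5 genes of dividing cells 3 and 5 rose, with means of 7.11 to 7.89, 8.18 to 8.69, 7.30 to 7.87 and 8.35 to 8.57 in the same order of groups. Of 8 neutrophil genes 2 and 1 rose by limma. LPE called 8 and 3 of them higher, against 3.46% and 4.45% of all clusters. The mean of the 8 in WTT ran from 8.68 in WTT 160 to 11.08 in WTT 164, the mice with the highest and the lowest mean of the T cell genes in that group. Genes common to all leukocytes had means of 9.999 to 10.66 in WTC, 10.54 to 10.86 in WTT, 10.01 to 10.61 in KOC and 10.48 to 10.77 in KOT, with 1 and 2 of 6 higher. Of 6 measured genes of lymphoid tissue 1, *Cxcl13*, a chemokine for B cells, rose in *Fra-1*+/+ mice, by 2.27 (adjusted p = 0.0443, SE 0.72). Its difference of 2.03 (adjusted p = 0.0845, SE 0.72) in *Fra-1*Δ/Δ mice did not pass in limma. There LPE called *Cxcl13* and *Ccl19* higher, against 4.45% of all clusters. Without the 3 mice *Cxcl13* passed in limma in both, at 3.14 and 2.47, and without WTC 157 (1.77), WTC 158 (1.89), WTT 161 (2.16) or WTT 164 (2.05), or without KOC 53, KOC 55 or KOT 72 (2.27 each), it lost the call in *Fra-1*+/+ mice. Of 5 platelet genes 1 fell in each genotype, and of 8 genes of the alveolar epithelium 4 and 3 fell, against 11.3% and 7.98% of all clusters. None of the 5 genes of immature thymocytes passed in limma in any comparison. Between the genotypes no gene of these lists passed in limma. LPE called between KOT and WTT, beside the B cell and activation genes, *Ccr4*, *Ncr1* and *Glycam1* higher and *S100a8*, *Il1r2*, *Itgam* and *Ppbp* lower. Of all clusters it called 0.555% higher and 0.15% lower there. Between KOC and WTC it called *Cxcl13* and *Retnlg* higher, against 0.346% of all clusters higher and 1.44% lower.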

How the data were processed

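Left lung RNA of 12 mice was measured on Affymetrix MoGene 1.0ST arrays, 1 per mouse. The deposited values are on the log2 scale. To make them, the authors used Affymetrix Power Tools (version and genome build not given in the sources used here) for quantile normalization across the arrays and for RMA summaries by median polish, 1 per transcript cluster. Quantile normalization gives all arrays nearly the same distribution, so values are relative to the other genes of the array. The authors' filter on detection above background was not used. The table of 35556 clusters was named from the platform's probe table, in which 23410 clusters carry a gene symbol.

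Groups came from the labels. The 12 arrays entered 1 limma 3.58.1 model (R 4.3.3) with a mean per group and 8 residual degrees of freedom, and p-values, all two-sided, were adjusted by Benjamini-Hochberg over the 23410 clusters (threshold 0.05). The SE therefore also holds the spread of groups outside a comparison. LPE was written anew in R (100 intensity bins, spline of 10 degrees of freedom, adjusted p under 0.01). Both were run on simulated data, with limits set for the limma fit only. The simulated noise was independent between clusters and had the same SD in all groups. The T cell genes here moved together by mouse and differed in SD between groups, so the simulation does not cover them. Precision is limited by the number of arrays. An exact two-sided p for 3 mice against 3 cannot go below 0.1. A member with several clusters would have been read from the brightest, but none had several.

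The members, gene lists, tests and alternatives were chosen with earlier results of these data known. Genes shown in every mouse are the CD3 chains, Cd247, Cd4, Cd8a, Cd8b1, members that the study names, members past the test and those with the largest differences. Of other lists up to 3 genes with the smallest p are named. Genes that LPE called, that mark a cell type or tissue or that moved against others of their list are named too. Alternatives were LPE, only the 6 arrays of a comparison, trended and robust moderation, array weights, equal array medians, cyclic loess, leaving out clusters whose highest group mean is under 6, all clusters, the mean of a gene's clusters, a term for animal numbers over 100 and leaving out each array. The fit without WTC 76, KOC 67 and KOT 72, whose Glycam1 lies over 9, was chosen after seeing the data. Sequences are from RefSeq (GRCm38.p6), and no protein sequence was used here.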

Additional observations from a re-analysis of the deposited data

How the results depend on the processing

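No paired analysis was possible because the animal numbers are not shared between groups. Of the 35 genes, no call turned its direction under any alternative run. Cd2 and Gata3 (WTT against WTC, 23 alternatives each) and Runx3 (KOT against KOC, 22) kept their calls under all of them, while Prkcq lost its call under 15 of 23, Cd226 under 7 of 23, Runx3 in WTT against WTC under 2 of 23 and Ccr9 in KOT against KOC under 4 of 22. The number of T cell genes past the test between WTT and WTC, 5, was 8 (2 higher, 6 lower) with equal array medians or with a group mean of at least 6, and 2 to 11 when 1 array was left out. Between KOT and KOC, 2 became 4 with array weights and 1 without the 3 mice high in Glycam1, and 1 to 3 when 1 array was left out. Between KOT and WTT, 0 became 2 with LPE and stayed at 0 without any 1 array, as did KOC against WTC and the difference between responses. Except for LPE and the fit without the 3 mice, the shares of all clusters that passed under these alternatives are not given here. Their counts cannot be set against the array. The median of the 35 genes ranged from -0.54 to -0.05 (WTT against WTC), -0.05 to 0.11 (KOT against KOC), 0.27 to 0.46 (KOT against WTT), -0.11 to 0.25 (KOC against WTC) and 0.03 to 0.46 (difference between responses) when 1 array was left out. Over the measured members and all alternatives, differences changed sign in 112 of 803 values for KOC against WTC, 50 of 803 for WTT against WTC, 31 of 768 for KOT against KOC, 5 of 768 for KOT against WTT and 26 of 698 for the difference between responses, none of them a call. Among the genes given in every mouse these included Cd3g in KOC against WTC (-0.55 with the term for animal numbers, and -0.0431 without WTC 157 to 0.9064 without WTC 76), Cd8a in KOT against WTT (-0.0151 without the 3 mice high in Glycam1, and -0.0151 without KOT 72 to 0.2643 without WTT 160), Cd247 in KOT against WTT (-0.0036 without WTT 164 to 0.1825 without WTT 160) and Gata3 in KOT against KOC (-0.24 without KOC 67 to 0.0306 without KOC 55). The cause was not tested. The mean of a gene's clusters changed nothing, since no member had several. Low brightness limits Trat1 and Sh2d1a, which a group mean of at least 6 leaves out.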
